A study of Mus musculus with 2 samples.

Results

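The genes Pdcd1, Ctla4, Cd28, Cd274, Pdcd1lg2, Cd80 and Cd86 encode the receptors PD-1, CTLA-4 and CD28 and the ligands PD-L1, PD-L2, CD80 and CD86. These 7 genes were taken by symbol from the 31053 features of a single-cell RNA sequencing study, and each matched 1 feature. The tumours grew from MC38 cells, a mouse colon carcinoma line, placed in the right flank of C57BL/6 mice. Control mice received PBS, although a label also calls them untreated, and the others received SHP099 hydrochloride by the intragastric route at 5 mg/kg, once daily over 14 days. The start is given as day 5 for both groups. SHP099 is an allosteric inhibitor of SHP2, the phosphatase encoded by Ptpn11. The 6 mice of a group are represented by a single library, and the sources used here do not state how many of their tumours were sampled.

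PD-1 is an inhibitory receptor of activated T cells that binds PD-L1 and PD-L2, and its phosphorylated cytoplasmic tail recruits SHP2. CD28 gives T cells a costimulatory signal when it binds CD80 or CD86, and CTLA-4, which is abundant in regulatory T cells, binds the same ligands with higher affinity. Antigen-presenting cells carry CD80 and CD86, whereas PD-L1 is found on many tumour and immune cells and is raised by interferon-gamma.

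With 1 library per group, differences between treatments have no replicate check and no test was made. Levels are UMIs (unique molecular identifiers, each marking 1 captured RNA molecule) of a gene per 1000000 UMIs of the cells named, abbreviated CPM. Pairs of values give the control library first and the SHP099 library second. Log2 ratios are SHP099 over control after 0.5 CPM was added to both, so negative values mean a lower level with SHP099. Ranges in parentheses are 95% intervals that cover counting error only. Those of log2 ratios were computed without the added 0.5 CPM, so for genes at low levels a ratio lies nearer to 0 than the centre of its interval. Barcodes numbered 8245 and 8263 with 126218180 and 112901642 UMIs, and filters left 7689 and 7689 cells at median depths of 9185 and 10733 UMIs. A set of 100 barcodes occurred in both libraries. Marker genes gave the classes their names, and a name stands for cells that resemble the type.

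Most cells belonged to 3 classes. The largest, of 4190 and 4291 cells, was nearly free of Xist, the transcript that silences an X chromosome in female cells, and is called Xist-negative. Of 7 markers taken for MC38 cells, Hmga2, Igf2bp2, Igf2bp3 and Tnfrsf12a stood there at 14.0 to 221 CPM, the keratin genes Krt8 and Krt18 were below 0.1 CPM, and Epcam had no UMI. Some of its clusters had a marker of another type among their leading genes, such as the natural killer (NK) cell marker Klra4 in cluster 4 and the fibroblast marker Dcn in cluster 9, so values by cluster number accompany those of the class. Mononuclear phagocytes, which join the macrophage and monocyte clusters, numbered 2527 and 2603, and T cells 521 and 399. Smaller classes were NK cells (99 and 53), fibroblasts (86 and 59), dendritic cells closest to the cDC2 type (62 and 63), endothelial cells (30 and 45) and migratory dendritic cells (20 and 15). Ratios were taken where each library held at least 50 cells.

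T cells held most UMIs of the 3 receptors in these tumours. T cells gave 93.9% and 84.3% of all Pdcd1 UMIs, 82.8% and 86.9% of Ctla4 UMIs and 82.1% and 84.9% of Cd28 UMIs. NK cells added 7.88% and 2.40% of the Ctla4 UMIs and 8.53% and 4.71% of the Cd28 UMIs. Xist-negative cells held 23 and 19 Ctla4 UMIs, beside 21.5 and 17.5 that T cell RNA would give there in the proportion of Cd3d, Cd3e, Cd3g and Trac. Receptor UMIs in Xist-negative cells were therefore read as background. Phagocytes gave 1.27% and 9.05% of Pdcd1 UMIs, 2.70% and 3.73% of Ctla4 UMIs and 3.85% and 4.47% of Cd28 UMIs. They held 5 and 19 Pdcd1 UMIs beside 7.11 and 4.41 in the same proportion of T cell RNA. Ctla4 had 13 and 14 beside 7.65 and 8.12, and Cd28 23 and 18 beside 9.41 and 8.52. The source of the UMIs above that proportion was not tested.

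The ligands divided among the other classes. Cd274 was the member with a level of its own in Xist-negative cells, which gave 70.1% and 73.5% of its UMIs, while phagocytes gave 26.05% and 22.8%. Its 3752 and 2737 UMIs there compare with 57.5 and 36.9 in the proportion of phagocyte marker RNA. Phagocytes held 84.4% and 82.8% of Cd80 UMIs and 87.8% and 88.7% of Cd86 UMIs. Pdcd1lg2 was spread more widely, with 51.2% and 42.98% in phagocytes, 28.6% and 32.2% in T cells and 7.54% and 9.92% in NK cells.

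**Figure D1:**
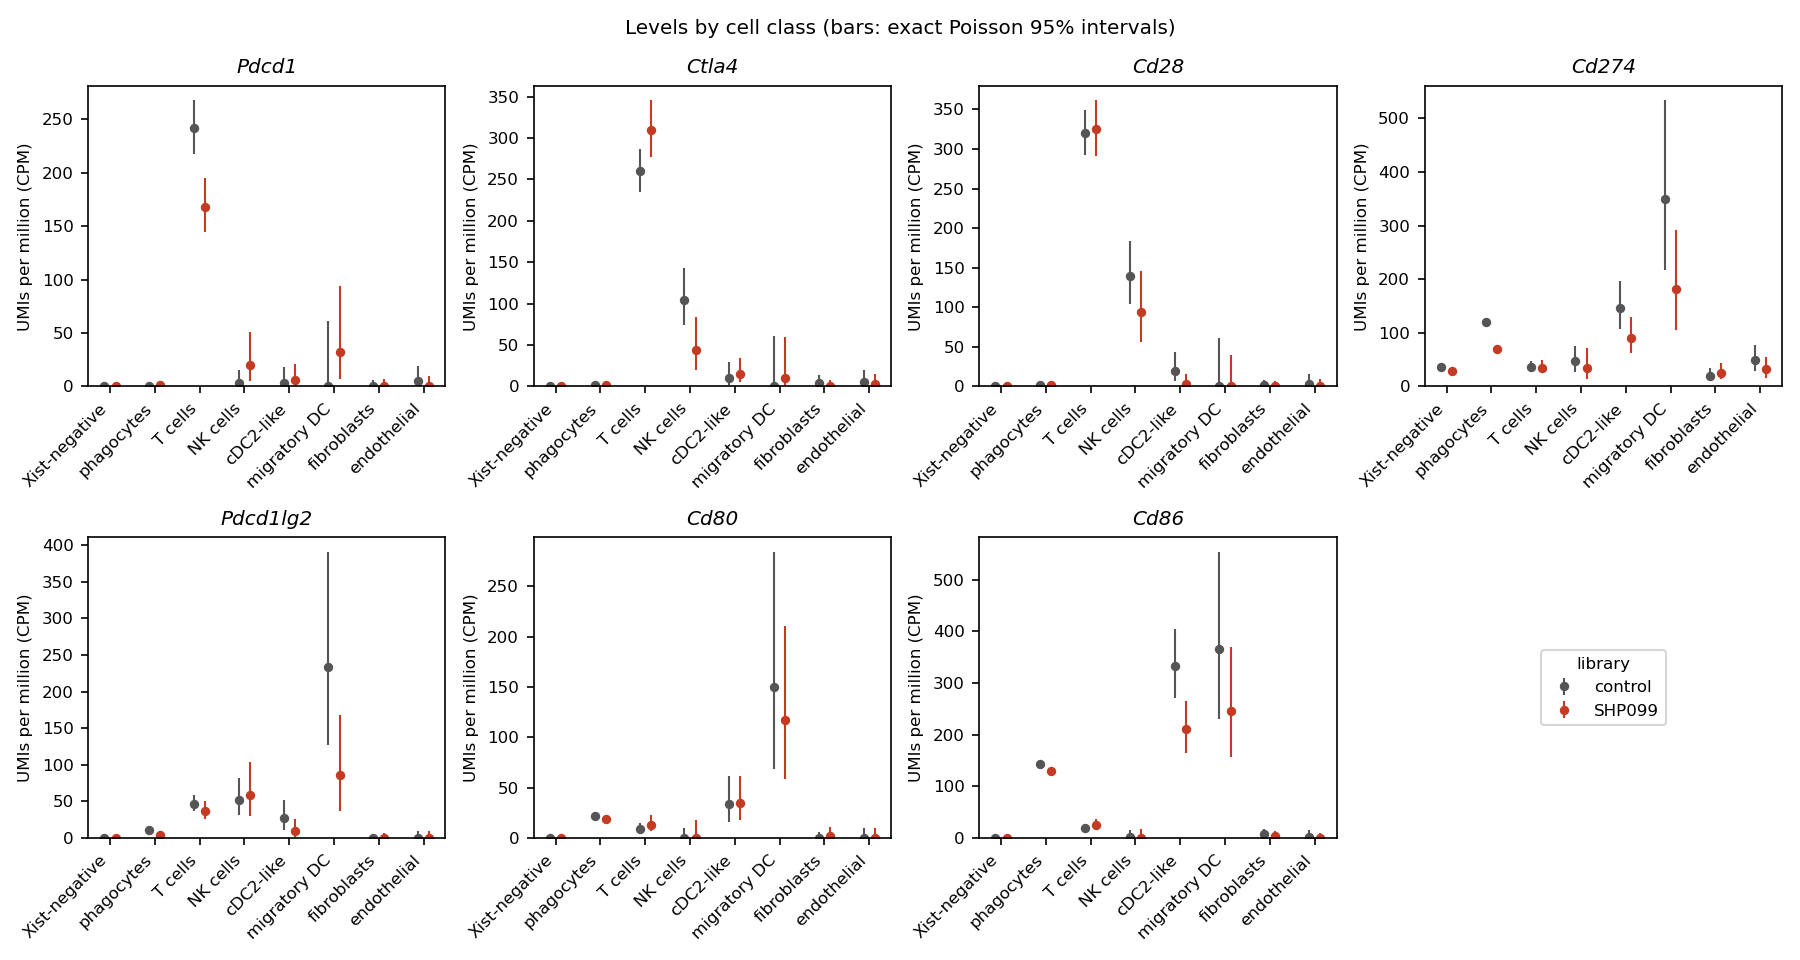
Level of each of the 7 genes in 8 cell classes (x axis), in CPM (y axis, with a scale of its own in each panel), 1 point per library, grey for control and red for SHP099, and exact Poisson 95% intervals as bars. The 3 receptors are drawn highest in T cells, and Cd274 is highest in migratory dendritic cells at 349 and 182 CPM.

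In order of the control level, Cd274 stood first in migratory dendritic cells at 349 CPM (216 to 534). The cDC2-like cells at 146 CPM (106 to 196) and the phagocytes at 119.98 CPM (114 to 126) followed, with overlapping intervals. A cluster left unnamed, marked by Ctsk, Mmp9 and Acp5, was at 70.3 CPM (49.995 to 96.1). Endothelial cells at 48.7, NK cells at 46.5, T cells at 36.5 and Xist-negative cells at 35.97 CPM did not differ beyond their intervals, and fibroblasts were lowest of these at 19.8 CPM (10.6 to 33.9). With SHP099 the first 3 were in the same order, at 182, 90.7 and 69.02 CPM. The 10 and 5 plasmacytoid dendritic cells gave no UMI of any member, which allows Cd274 up to 72.6 CPM in control.

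The receptors had different levels in the 3 T cell clusters. Pdcd1 was highest in cluster 12, marked by Cd8a and Nkg7, at 302 and 250.04 CPM, against 107 and 77.4 CPM in cluster 16 and 84.8 and 50.9 CPM in cluster 17. Ctla4 was highest in cluster 16, marked by Tnfrsf4, Ikzf2 and Icos, at 622 and 752 CPM. Cd28 was at 483 and 449.9 CPM in cluster 16 and 442 and 595 CPM in cluster 17, which was marked by Gzmk and Ms4a4b. The members were kept out of the genes used for clustering, but genes that vary with them were not, so these differences between clusters are a description.

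**Figure D2:**
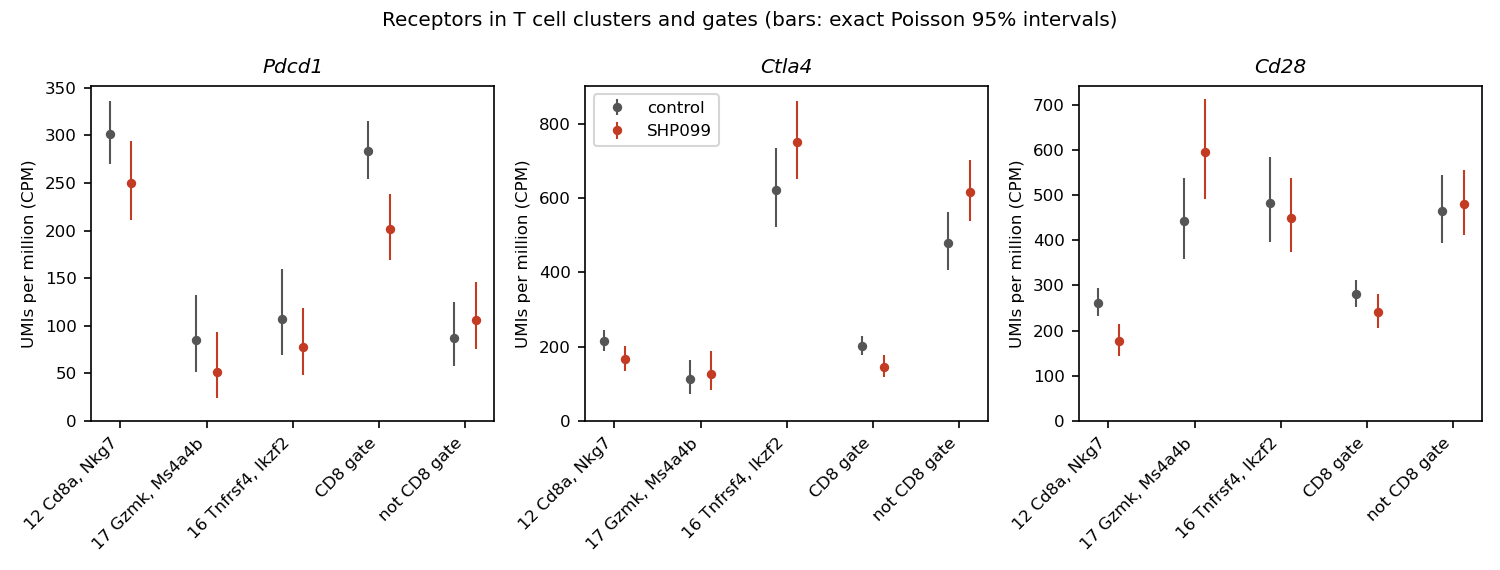
Pdcd1, Ctla4 and Cd28 in the 3 T cell clusters and in T cells inside and outside the CD8 gate (x axis), in CPM (y axis), 1 point per library, with exact Poisson 95% intervals as bars. Pdcd1 stands highest in cluster 12 and Ctla4 in cluster 16, and within cluster 12 each receptor has its lower point in the SHP099 library.

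Pdcd1 was lower in T cells of the SHP099 library. It had 371 UMIs in control, 242 CPM (218 to 268), and 177 in SHP099, 168 CPM (144 to 195), a log2 ratio of -0.52 (-0.79 to -0.26). The intervals of the levels did not overlap. After each cell was drawn down to 2000 UMIs and shallower cells were left out (194 and 197 T cells), a Pdcd1 UMI was found in 35.2% (29.995 to 40.6) of control and 28.2% (22.1 to 34.96) of SHP099 T cells. These shares overlapped, and before drawing down they were 38.2% and 26.3%. Of Xist-negative cells, read as background, 0 of 4111 in control held a Pdcd1 UMI when drawn down and 0.286% before, at control median depths of 24315.5 UMIs there and 2373 UMIs in T cells.

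The T cell clusters had different proportions in the libraries. Cluster 12 held 57.6% and 41.4% of T cells, cluster 16 20.5% and 31.1% and cluster 17 21.9% and 27.6%. Within each cluster Pdcd1 was lower with SHP099, at log2 ratios of -0.27 (-0.56 to 0.01) in cluster 12, -0.47 (-1.39 to 0.43) in cluster 16 and -0.73 (-2.01 to 0.44) in cluster 17. All 3 intervals included 0, that of cluster 12 narrowly and from 328 and 146 UMIs, so counting error covers the Pdcd1 difference within each cluster. Haemoglobin RNA, summed over 4 genes, was also unequal in T cells, at 22.8 and 317 CPM, with 3 of the 4 genes at least 1.5-fold higher and 0 at 0 in either library, and its part in the receptor values was not tested.

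A gate on each cell's own UMIs gave a value for CD8 T cells. It took T cells with a Cd8a or Cd8b1 UMI and none of Cd4 or Foxp3, which were 353 and 225 cells, or 67.8% and 56.4% of T cells. Pdcd1 was at 283 and 201 CPM (-0.49, -0.79 to -0.20) inside the gate, where haemoglobin RNA was at 27.2 and 16.1 CPM. Outside the gate Pdcd1 was at 86.8 and 106 CPM (0.29, -0.44 to 1.05), which counting error covers. A cell must yield a CD8 UMI to enter, and median depths were 2757 and 2542 UMIs inside and 1543.5 and 1517.5 outside. The make-up of the gate also differed, with 292 and 154 of its cells in cluster 12 and 58 and 70 in cluster 17, where Pdcd1 was lower. The gate value therefore mixes cluster proportions with levels, and their parts were not tested.

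Ctla4 was higher in T cells as a class. It had 399 UMIs in control, 260.1 CPM (235 to 287), and 326 in SHP099, 309.99 CPM (277 to 346), a log2 ratio of 0.25 (0.04 to 0.47). The intervals of the levels overlapped. Drawn down, 33.6% (28.5 to 39.04) of control and 36.6% (29.98 to 43.7) of SHP099 T cells held a Ctla4 UMI, against 0.122% and 0.0235% of Xist-negative cells, and before drawing down the T cell shares were 42.6% and 38.8%. Within clusters Ctla4 was at 216 and 166 CPM (-0.38, -0.74 to -0.03) in cluster 12, 622 and 752 CPM (0.27, -0.04 to 0.60) in cluster 16 and 112 and 127 CPM (0.19, -0.67 to 1.05) in cluster 17. Weighting the 3 clusters alike gave a log2 ratio of 0.03, and cluster 12 alone gave the opposite sign.

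A similar division appeared by gate, which draws on the same cells as the clusters and is not a separate observation. In CD8 T cells Ctla4 was at 201 and 146 CPM (-0.46, -0.82 to -0.12), and outside the gate at 481 and 617 CPM (0.36, 0.06 to 0.66). Of the 168 and 174 cells outside the gate, 118 and 113 had no UMI of Cd8a, Cd8b1, Cd4 or Foxp3. They are therefore not a defined lineage, and as for Pdcd1 the gate values mix cluster proportions with levels. Regulatory T cells, taken as T cells with a UMI of their defining transcription factor gene Foxp3, were 4.61% (2.97 to 6.78) and 8.52% (5.97 to 11.7) of T cells. Of these 24 and 34 cells, 16 and 28 had exactly 1 Foxp3 UMI, and 7 and 5 also had a Cd8a or Cd8b1 UMI. In cluster 16 lay 21 and 30 of them, among its 107 and 124 cells, so cells without a Foxp3 UMI may include regulatory T cells. In the cells with a Foxp3 UMI the Ctla4 level was 644 CPM (479 to 846) in control and 710.1 CPM (574 to 869) with SHP099. No ratio was taken because there were fewer than 50 cells. T cells with a Cd4 UMI and none of Foxp3, Cd8a or Cd8b1, of which there were 25 and 26, held Ctla4 at 421 CPM (260.4 to 643) and 599 CPM (409.6 to 845). The lack of a Foxp3 UMI does not show that these were conventional CD4 T cells.

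Cd28 was level over T cells as a whole and unequal within them. It had 491 UMIs in control, 320.1 CPM (292 to 349.7), and 342 in SHP099, 325 CPM (292 to 362), a log2 ratio of 0.02 (-0.18 to 0.23). By cluster it was at 261 and 176 CPM (-0.57, -0.91 to -0.24) in cluster 12, 483 and 449.9 CPM (-0.10, -0.49 to 0.28) in cluster 16 and 442 and 595 CPM (0.43, 0.03 to 0.83) in cluster 17. The interval lay below 0 in cluster 12 and above 0 in cluster 17. In the CD8 gate Cd28 was at 281 and 242 CPM (-0.22, -0.49 to 0.06).

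All 7 members reached 10 CPM in T cells in at least 1 library. Of them 1 was at least 1.5-fold higher with SHP099 and 0 lower, beside 11.1% and 6.98% of the 6917 genes compared. The higher one was Cd80, from 13 and 14 UMIs, at 8.47 and 13.3 CPM (0.62, -0.55 to 1.86). Scaling by the median ratio of genes moved the 766 higher and 483 lower genes to 589 and 588. In the CD8 gate 6 members reached 10 CPM, with 1 higher and 0 lower, beside 13.1% and 9.64% of 6878 genes, and the higher one was Cd86 at 17.3 and 32.1 CPM (0.87, -0.04 to 1.82).

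T cells also carried ligand RNA at low levels. Pdcd1lg2 was at 46.9 and 37.1 CPM (-0.34, -0.94 to 0.24) and Cd274 at 36.5 and 35.2 CPM (-0.05, -0.69 to 0.57), so that counting error covers both differences. The 5 phagocyte markers stood in T cells at 1.45% and 1.81% of their phagocyte level, whereas Pdcd1lg2 stood at 423% and 875% and Cd274 at 30.4% and 50.97%. In cluster 16 Cd274 was at 112 and 55.3 CPM (-1.01, -2.05 to -0.04), from 25 and 15 UMIs.

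Other receptors of T cells were read from lists. Of 9 genes in the files listed as inhibitory receptors, 7 reached 10 CPM in T cells. Of these, 1 was at least 1.5-fold higher and 0 lower, with a median log2 ratio of -0.11, beside 0.07 for all genes compared. The higher one was Entpd1, at 21.5 and 48.5 CPM (1.15, 0.51 to 1.85). It encodes an ectonucleotidase that degrades extracellular ATP and is not itself an inhibitory receptor, although it is on the list. Lag3, a receptor of class II molecules, was at 263 and 184 CPM (-0.51, -0.76 to -0.26). All 8 costimulatory receptors reached 10 CPM and none was 1.5-fold apart, with a median of 0.23. Icos, a relative of CD28, was at 429.6 and 578 CPM (0.43, 0.27 to 0.59).

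Signalling genes of these receptors were mostly level in T cells. All 16 reached 10 CPM, none was 1.5-fold apart, and their median log2 ratio was 0.06. Ptpn11, which encodes the target of the drug, was at 38.5 and 34.2 CPM (-0.17, -0.81 to 0.45). Ptpn6, which encodes the related phosphatase SHP1, was at 78.9 and 114 CPM (0.53, 0.16 to 0.91). Of 12 transcription factors 11 reached 10 CPM and 1 was higher, Nr4a1, an early gene of receptor signalling, at 124 and 196 CPM (0.66, 0.37 to 0.95). Tox, a factor of exhausted T cells, was at 90.6 and 96.04 CPM (0.08, -0.30 to 0.46).

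In NK cells Ctla4 had 38 UMIs in control, 104 CPM (73.6 to 143), and 9 in SHP099, 44.4 CPM (20.3 to 84.3), a log2 ratio of -1.22 (-2.46 to -0.16). Cd28 was at 139.6 and 93.7 CPM (-0.57, -1.42 to 0.21) and Pdcd1lg2 at 52.03 and 59.2 CPM (0.18, -0.99 to 1.30). Of the 5 members at 10 CPM or more in NK cells 1 was at least 1.5-fold higher and 1 lower, beside 19.7% and 25.5% of 6839 genes. They were Pdcd1, with 1 and 4 UMIs (2.64, -0.49 to 8.47), and Ctla4. Counting error covers the differences of Pdcd1 and Cd28. T cell RNA was also lower, as Cd3d, Cd3e, Cd3g and Trac summed to 186 and 34.5 CPM, all 4 at least 1.5-fold lower and 2 at 0 with SHP099. In the proportion of that RNA the NK cells would hold 4.33 and 0.503 Ctla4 UMIs, against the 38 and 9 found. The part of T cell RNA in the NK cell ratios was not tested.

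Cd274 was lower with SHP099 in both of the large classes. In phagocytes it had 1395 UMIs in control, 119.98 CPM (114 to 126), and 847 in SHP099, 69.02 CPM (64.5 to 73.8), a log2 ratio of -0.79 (-0.92 to -0.67). Drawn down, 19.6% (18.01 to 21.3) of control and 11.7% (10.4 to 13.03) of SHP099 phagocytes held a Cd274 UMI, and 35.3% and 23.4% before. Neither the levels nor the shares overlapped.

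Pdcd1lg2, the neighbour of Cd274 on chromosome 19, was also lower in phagocytes. It had 129 UMIs in control, 11.1 CPM (9.26 to 13.2), and 52 in SHP099, 4.24 CPM (3.16 to 5.56), a log2 ratio of -1.29 (-1.88 to -0.91). With 5 CPM added in place of 0.5 the ratio was -0.80. Drawn down, a UMI was found in 2.00% (1.47 to 2.65) and 0.544% (0.290 to 0.929) of phagocytes, with 4.04% and 1.84% before, and in 0 of 4111 and 1 of 4261 Xist-negative cells.

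Cd80 and Cd86 were closer to level in the same cells. Cd80 had 248 UMIs in control, 21.3 CPM (18.8 to 24.2), and 236 in SHP099, 19.2 CPM (16.9 to 21.8), a log2 ratio of -0.15 (-0.41 to 0.11). Cd86 had 1656 UMIs in control, 142 CPM (136 to 149), and 1582 in SHP099, 129 CPM (123 to 135), a log2 ratio of -0.14 (-0.24 to -0.04). Counting error covers the difference for Cd80, and that of Cd86 was small.

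Of the members 4 reached 10 CPM in phagocytes, 2 at least 1.5-fold lower and 0 higher. Of the 6797 genes compared there 1.88% were as much lower and 4.35% as much higher. Mitochondrial UMIs were 2.18% and 3.08% of the total and median depths 4414 and 4303 UMIs. Haemoglobin RNA summed to 2.06 and 21.8 CPM, with all 4 genes at least 1.5-fold higher and 1 at 0 in control, and its part in the ligand values was not tested.

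**Figure D3:**
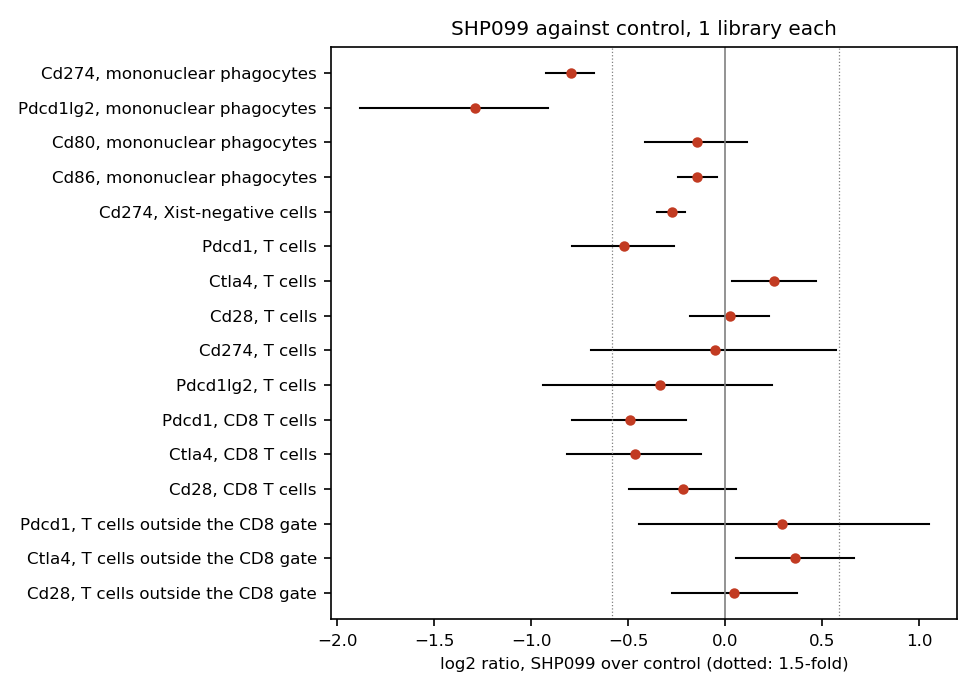
Log2 ratio of SHP099 over control (x axis) for members in phagocytes, Xist-negative cells, T cells, and T cells inside and outside the CD8 gate (y axis). Bars are exact conditional binomial 95% intervals, and dotted lines lie at 1.5-fold. Cd274 and Pdcd1lg2 in phagocytes lie past the 1.5-fold line with their whole intervals, at -0.79 and -1.29.

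The phagocyte clusters also had different proportions in the libraries, and Cd274 was lower in each. Cluster 0, marked by Mmp12 and Arg1, held 41.7% and 23.97% of phagocytes, with Cd274 at 128 and 78.3 CPM (-0.70, -0.92 to -0.49). Cluster 2, marked by Ly6i, Il1b and Ccr2, held 32.01% and 28.01%, with Cd274 at 131 and 68.96 CPM (-0.92, -1.17 to -0.68). Cluster 13, the monocytes marked by Chil3, Plac8 and Ly6c2, held 9.89% and 7.99%, with Cd274 at 127 and 65.01 CPM (-0.96, -1.58 to -0.38). These 3 clusters made up a smaller part of the SHP099 phagocytes.

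The other clusters made up a larger part of them. Cluster 5, marked by Cd72 and Ccl12, held 13.9% and 30.8% of phagocytes, and its Cd274 level was 89.9 and 73.4 CPM (-0.29, -0.58 to -0.0049). Cluster 14, marked by Stmn1 and Pclaf, genes of dividing cells, held 2.53% and 9.26%, with Cd274 at 68.5 and 44.96 CPM (-0.60, -1.20 to 0.01). In all, Cd274 was lower in 5 of 5 clusters, with the interval below 0 in 4.

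Pdcd1lg2 was lower in 5 of 5 phagocyte clusters, with the interval below 0 in 3. It was highest in cluster 2, at 16.6 and 7.36 CPM (-1.12, -1.96 to -0.43), and was at 9.14 and 3.20 CPM (-1.38, -2.66 to -0.52) in cluster 0. In cluster 14 it had 6 UMIs in control and 0 with SHP099, which allows up to 1.67 CPM, against 11.7 CPM. Cd86 had its interval below 0 in clusters 13 and 0, at 209.9 and 152 CPM (-0.46, -0.88 to -0.06) and 117 and 98.7 CPM (-0.25, -0.45 to -0.05). Cd80 was highest in the monocytes of cluster 13, at 45.4 and 42.7 CPM, and its difference was within counting error in all 5 clusters.

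**Figure D4:**
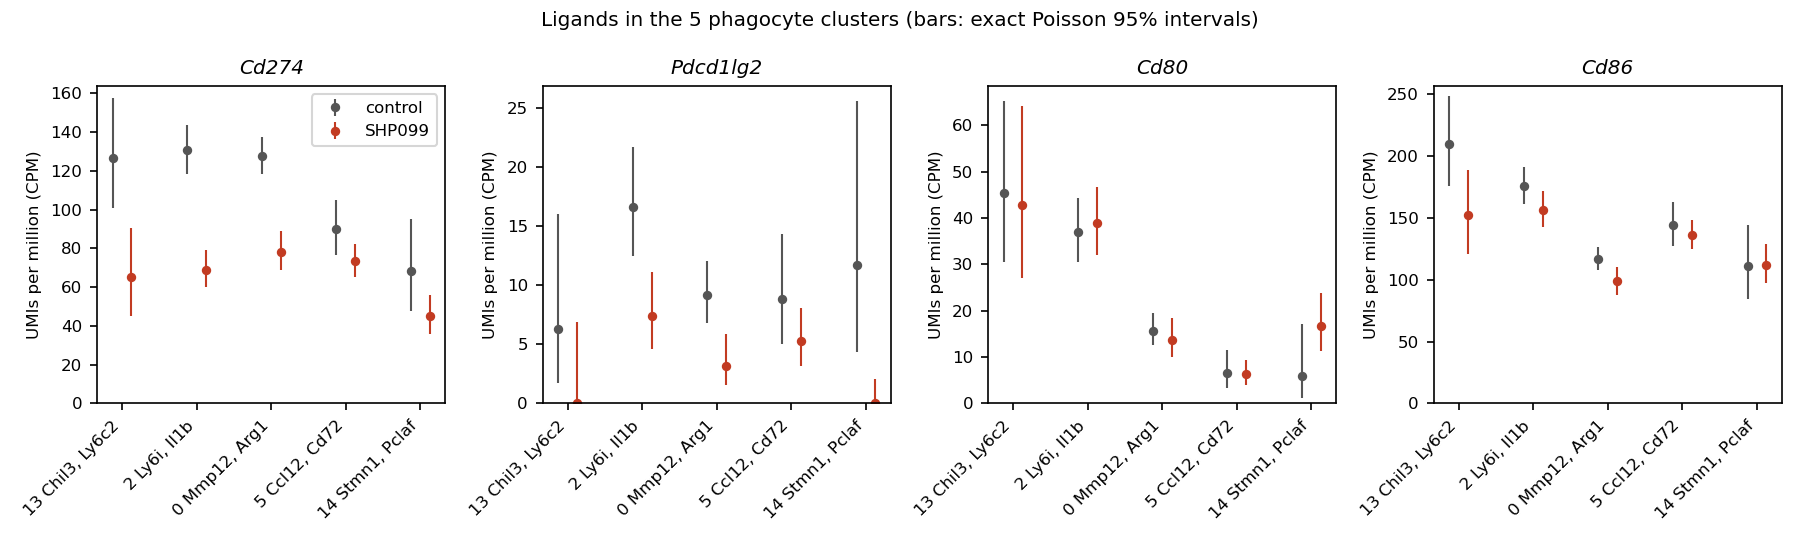
The 4 ligands in the 5 phagocyte clusters (x axis, by cluster number and marker genes), in CPM (y axis), 1 point per library, with exact Poisson 95% intervals as bars. The SHP099 points of Cd274 and of Pdcd1lg2 lie under the control points in all 5 clusters.

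Phagocytes were also split by Cxcl9, a chemokine gene induced by interferon-gamma. In cells with a Cxcl9 UMI Cd274 was at 134 and 78.5 CPM (-0.77, -0.97 to -0.59), and in cells without one at 106 and 64.04 CPM (-0.73, -0.90 to -0.56). Pdcd1lg2 was at 17.3 and 6.15 CPM (-1.42, -2.18 to -0.86) with Cxcl9 and 5.20 and 3.23 CPM (-0.61, -1.49 to 0.11) without. A split by Arg1, which encodes arginase, gave Cd274 at 125 and 75.6 CPM (-0.72, -0.89 to -0.55) with a UMI and 113 and 63.6 CPM (-0.82, -1.02 to -0.64) without. Cd274 was lower with SHP099 on both sides of each split, and the sides were not tested against each other.

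Genes listed as regulators of PD-L1 mostly differed by less than 1.5-fold in phagocytes. Of 16 listed, 14 reached 10 CPM, 1 was at least 1.5-fold lower and 0 higher, with a median log2 ratio of -0.04 beside 0.05 for all genes. The lower one was Irf1, the interferon-induced factor that drives PD-L1 transcription, at 98.8 and 65.5 CPM (-0.59, -0.72 to -0.46). Hif1a, the hypoxia factor, was at 201 and 146 CPM (-0.46, -0.55 to -0.37). Ifngr1, which encodes a chain of the interferon-gamma receptor, was at 129 and 139.8 CPM (0.12, 0.02 to 0.22). Cmtm6, whose protein keeps PD-L1 at the cell surface, was at 43.9 and 48.97 CPM (0.15, -0.02 to 0.33). The highest ratio among those at 10 CPM or more was that of Myc, at 13.6 and 17.2 CPM (0.33, 0.04 to 0.65). Intervals clear of 0 thus occurred in both directions.

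Interferon-gamma-responsive genes, a list that shares Irf1 with the one above, were read in the same cells. Of 9 at 10 CPM or more, 5 were at least 1.5-fold lower and 0 higher, beside 1.88% and 4.35% of all genes compared, with a median log2 ratio of -0.59. Nos2, the inducible nitric oxide synthase gene, was at 18.7 and 4.64 CPM (-1.90, -2.46 to -1.59). Cxcl9 was at 554 and 309.8 CPM (-0.84, -0.90 to -0.78). The other lower genes were Irf1 and, named after their values were seen, the guanylate-binding protein gene Gbp2 (243 and 145 CPM) and Socs1 (52.98 and 32.6 CPM), an inhibitor of cytokine signalling. Cxcl10, a chemokine gene of the same list, was higher, at 361 and 539 CPM (0.58, 0.52 to 0.63).

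Other ligands of T cell receptors were read in the same cells. Of 14 listed, 6 reached 10 CPM, with 1 at least 1.5-fold higher, 0 lower and a median of 0.02. The higher one was Icosl, the ligand of ICOS, at 6.28 and 10.3 CPM (0.68, 0.29 to 1.16). Lgals9, a galectin that binds TIM-3, was at 135 and 173 CPM (0.36, 0.27 to 0.46), and Pvr, a ligand of TIGIT and CD226, at 39.6 and 30.97 CPM (-0.35, -0.55 to -0.15).

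In Xist-negative cells Cd274 had 3752 UMIs in control, 35.97 CPM (34.8 to 37.1), and 2737 in SHP099, 29.7 CPM (28.6 to 30.8), a log2 ratio of -0.27 (-0.35 to -0.21). Drawn down, 7.74% (6.94 to 8.59) of control and 6.38% (5.67 to 7.16) of SHP099 cells held a Cd274 UMI, and 43.99% and 35.5% before, at median depths of 24315.5 and 20152 UMIs. The levels did not overlap, whereas the shares did. Cd274 was the 1 member at 10 CPM there and was not 1.5-fold apart, beside 0.227% of 7033 genes as much lower and 1.14% as much higher. Haemoglobin RNA summed to 30.7 and 131 CPM, all 4 genes higher. Without cluster 21, which is led by haemoglobin genes, the Cd274 log2 ratio was again -0.27. The part of haemoglobin RNA in the Cd274 value of the other clusters was not tested. When cells were instead assigned by their own marker UMIs the log2 ratio was -0.64.

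Cd274 was lower in 9 of 9 Xist-negative clusters with 50 or more cells per library, with the interval below 0 in 7 and log2 ratios from -0.83 to -0.15. The highest levels were in cluster 11, marked by Dnm3os and Id3, at 85.4 and 63.8 CPM (-0.42, -0.74 to -0.10), and in cluster 9, marked by Aspn and Ogn, at 67.95 and 52.9 CPM (-0.36, -0.58 to -0.14). The lowest were in cluster 6, marked by Gm29666 and Aldh1a3, at 22.5 and 12.4 CPM (-0.83, -1.10 to -0.61). Cluster 9 held 5.30% and 11.7% of the class and cluster 6 15.2% and 10.4%, so the SHP099 library had more cells of a high cluster and fewer of a low one. Weighting the clusters alike gave a log2 ratio of -0.45.

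**Figure D5:**
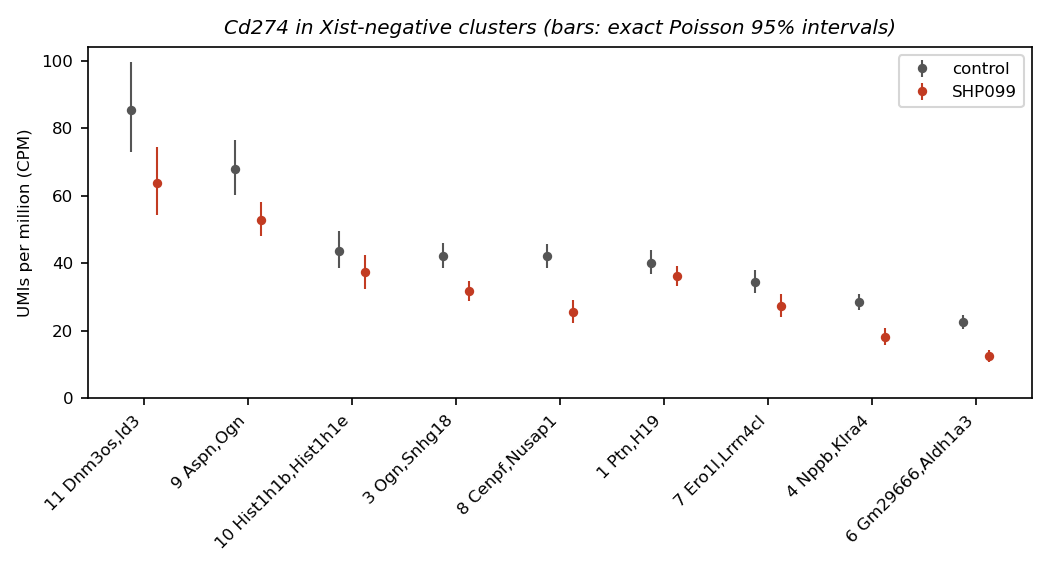
Cd274 in the 9 Xist-negative clusters compared (x axis, by cluster number and leading genes, ordered by control level), in CPM (y axis), 1 point per library, with exact Poisson 95% intervals as bars. The SHP099 point lies under the control point in all 9 clusters, from 63.8 CPM in cluster 11 to 12.4 CPM in cluster 6.

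Regulators of PD-L1 in Xist-negative cells differed by less than 1.5-fold, as did Cd274 there (-0.27). Of 14 at 10 CPM or more none was 1.5-fold apart, with a median log2 ratio of 0.04. Many had an interval clear of 0, in both directions. The lowest ratios were those of Irf1, at 78.8 and 66.1 CPM (-0.25, -0.30 to -0.21), and Myc (-0.20, -0.26 to -0.14). The highest were those of Ifngr1, at 49.3 and 68.2 CPM (0.46, 0.41 to 0.52), and Ifngr2 (0.27, 0.21 to 0.33). Ifng, the gene of interferon-gamma, was at 134 and 111 CPM (-0.26, -0.60 to 0.07) in T cells. Ptpn11 in Xist-negative cells was at 53.8 and 55.5 CPM (0.04, -0.01 to 0.10).

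Migratory dendritic cells had the highest level of each of the 4 ligand genes among the classes of the control library but were few. In the 20 and 15 migratory dendritic cells Cd274 was at 349 CPM (216 to 534) and 182 CPM (106 to 291), and Pdcd1lg2 at 233 CPM (127 to 391) and 85.6 CPM (36.9 to 169). Cd80 was at 149.7 CPM (68.5 to 284) and 118 CPM (58.7 to 210.5), and Cd86 at 366 CPM (229 to 554) and 246 CPM (156 to 369). For each of the 4 genes the intervals overlapped. In cDC2-like cells Cd86 had 100 UMIs in control, 333 CPM (271 to 404), and 72 in SHP099, 211 CPM (165 to 265), a log2 ratio of -0.66 (-1.12 to -0.21). Cd274 there was at 146 and 90.7 CPM (-0.69, -1.40 to 0.01) and Cd80 at 33.3 and 35.1 CPM (0.08, -1.26 to 1.45).

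The genes of the PD-1 ligands lie side by side. In GENCODE M21 on GRCm38, Cd274 (ENSMUSG00000016496) spans chr19:29367455-29388095 and Pdcd1lg2 (ENSMUSG00000016498) chr19:29410919-29471161, both on the forward strand with 22823 bases between them. Cd28 (ENSMUSG00000026012, chr1:60716800-60773359) and Ctla4 (ENSMUSG00000026011, chr1:60887000-60915832) are 113640 bases apart on the forward strand, and Pdcd1 (ENSMUSG00000026285, chr1:94038305-94052553) is on the reverse strand. Cd80 (ENSMUSG00000075122, chr16:38455561-38496335, forward strand) and Cd86 (ENSMUSG00000022901, chr16:36603869-36666081, reverse strand) share chromosome 16. Each range is a whole protein-coding gene with its introns. Pdcd1lg2 overlaps A930007I19Rik, Cd274 overlaps AC119228.1 and Ctla4 overlaps Rpl18-ps1, and the sources used here do not state whether counting used the strand.

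Because Cd274 and Pdcd1lg2 were lower together in phagocytes, the 250 bases before the start of each are shown, from RefSeq on GRCm38.p6, at chr19:29367188-29367437 and chr19:29410669-29410918 on the forward strand, 5′ to 3′. Capitals mark a match to the NF-kB motif, on the reverse strand, that begins 244 bases before the start of Pdcd1lg2.
Cd274: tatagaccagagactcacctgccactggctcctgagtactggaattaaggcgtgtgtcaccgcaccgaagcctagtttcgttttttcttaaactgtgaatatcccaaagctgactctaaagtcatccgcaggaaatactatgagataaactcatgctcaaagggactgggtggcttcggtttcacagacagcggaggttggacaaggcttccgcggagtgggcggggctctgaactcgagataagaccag
Pdcd1lg2: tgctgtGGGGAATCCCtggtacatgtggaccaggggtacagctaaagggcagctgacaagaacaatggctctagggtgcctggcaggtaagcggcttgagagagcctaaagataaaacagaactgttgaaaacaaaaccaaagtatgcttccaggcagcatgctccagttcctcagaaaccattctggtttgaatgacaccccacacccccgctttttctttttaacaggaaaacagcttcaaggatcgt
RefSeq promoters were matched for 5 of the 7 members, all but Cd28 and Cd86. Each was searched on both strands for 4 motifs: GAAA and GAAA with any 2 bases between (interferon regulatory factors), TTCNNNGAA (gamma-activated sites), TGANTCA (AP-1), and GGGA and CC with any 4 bases between (NF-kB). They occur in 2.98%, 7.02%, 6.75% and 17.6% of 32851 promoters of that length. The windows of Cd274, Ctla4 and Pdcd1 held none of the 4, and that of Pdcd1lg2 held the 1 in capitals. The window of Cd80 held the AP-1 letters 42 bases and the NF-kB letters 210 bases before its start. Starts here are those of RefSeq. The windows of Ctla4 (chr1:60908775-60909024) and Cd80 (chr16:38458683-38458932) lie inside the GENCODE gene ranges given above, so they are not the bases before those ranges. A match of letters is a description and not a binding site.

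Pearson's r of log2(CPM + 1) across the 24 clusters with at least 15 cells gave the genes most like each member, as a description over clusters that share the same libraries. Pdcd1 was most like Cd3e (0.97), Cxcr6 (0.96) and Cd247 (0.96). Ctla4 was most like Icos (0.99), Cd2 (0.98) and Ptprcap (0.98), and the genes most like Cd28 included Gimap3 (0.99) and Gm33104 (0.98). Cd274 was most like Rnf111 (0.95), Nfkbie (0.95) and Stxbp3 (0.93), and Pdcd1lg2 most like Stat4 (0.97), Fcho1 (0.97) and Dennd1c (0.94). Cd80 was most like Tnip3 (0.95), Cd83 (0.94) and Arl5c (0.94), and Cd86 most like Cd83 (0.96), Arl5c (0.95) and Lilrb4a (0.95). Between members r was 0.96 for Ctla4 and Cd28, 0.91 for Cd80 and Cd86, and 0.50 for Cd274 and Pdcd1lg2.

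Joint detection was read in single cells drawn down to 2000 UMIs. Of T cells with a Pdcd1 UMI, 33.9% (25.3 to 43.3) in control also held Ctla4, against 33.5% (27.2 to 40.3) of those without Pdcd1, and with SHP099 31.6% (19.9 to 45.2) against 38.6% (30.7 to 47.1). These shares overlapped in both libraries. In phagocytes with a Cxcl9 UMI 23.3% (20.4 to 26.3) in control held Cd274, against 17.6% (15.7 to 19.6) of those without Cxcl9, and with SHP099 14.2% (11.4 to 17.4) against 10.9% (9.55 to 12.4). In Xist-negative cells the same shares were 14.1% (10.7 to 18.1) against 7.11% (6.31 to 7.98) in control and 11.9% (8.69 to 15.8) against 5.90% (5.18 to 6.68) with SHP099. Cd274 was thus found more often in cells with Cxcl9 than in cells without it, beyond the intervals in both libraries for Xist-negative cells and in control for phagocytes.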

How the data were processed

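The deposited data are filtered UMI count matrices of 1 control and 1 SHP099 library. Libraries followed the 10x Chromium Single Cell 3' protocol, per the labels' protocols, and were processed with Cell Ranger on mm10 (GRCm38), per the submitters' processing notes. The sources used here name no gene annotation. Counts were used as deposited.

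Barcodes with at least 200 genes and at most 20% mitochondrial UMIs were kept, and Scrublet called and removed 263 and 211 doublets (3.31% and 2.67%, where 6.36% and 6.32% were expected), so some remain. The 100 barcodes found in both libraries were kept. Cells of both were clustered jointly, with no integration step, in scanpy 1.11.5 and leidenalg 0.10.2 at resolution 1. Clustering used 2000 variable genes that exclude the members and listed genes, 30 components and 15 neighbours. Clusters were named from at least 3 markers, each found in 10% of cells and 2-fold above the rest. Clusters with Xist under 0.1 of the median cluster were called Xist-negative unless at least 5 markers named another type, an exception made after the data were seen.

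UMIs were summed per class and library. Intervals are exact Poisson for levels, exact Clopper-Pearson for shares and exact conditional binomial, without the 0.5 CPM prior, for ratios. A count of 0 allows up to 3 counts. With 1 library per group no test was made. The ratio script was tested on simulated data. Other tools were Python 3.11.15, pandas 2.3.3, numpy 2.4.6, scipy 1.17.1 and matplotlib 3.10.9.

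The members and gene lists were chosen with earlier results of these data known. The text names the members, per list and class the 2 highest and 2 lowest ratios at 10 CPM or more, a panel of 15 genes, the 3 genes most like each member, and marker genes, of which a few are not reported here. Alternatives were scaling by median ratios, a prior of 5 CPM, doublets kept, a mitochondrial limit of 10%, cells or clusters weighted alike, cells assigned by their own markers, resolutions 0.5 and 2, and a 1 CPM floor for gene counts. Leaving out cluster 14 or 21, adding the unnamed cluster and taking cluster 12 alone were chosen after seeing the data.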

Additional observations from a re-analysis of the deposited data

Results flagged for a closer look

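Some members had log2 ratios of opposite sign in different cells, with each interval on its own side of 0, and in no case was the difference between the cells tested. Pdcd1 was higher in phagocytes, at 1.14 (0.38 to 3.63), and lower in T cells, at -0.52. The phagocyte value rests on 5 and 19 UMIs, where T cell marker RNA would give 7.11 and 4.41. These are levels of 0.43 and 1.55 CPM, so the 0.5 CPM added to the ratio, but not to its interval, weighs on it. Ctla4 was higher in T cells, at 0.25, and lower in NK cells, at -1.22, where T cell marker RNA was also lower (186 and 34.5 CPM). Ctla4 was higher outside the CD8 gate, at 0.36, and lower in CD8 T cells, at -0.46. Outside the gate 118 of 168 and 113 of 174 cells had no UMI of Cd8a, Cd8b1, Cd4 or Foxp3. Cd28 was higher in T cell cluster 17, at 0.43, and lower in cluster 12, at -0.57.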

How the results depend on the processing

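No paired analysis was possible because each group has 1 library, and for the same reason no replicate could be left out. Pdcd1 in T cells kept its sign in 10 of 10 alternatives, from -0.59 to -0.27, and Cd86 in phagocytes in 11 of 11, from -0.22 to -0.13. Cd274 in phagocytes kept its sign in 11 of 11 and moved to -0.60 with cells assigned by their own markers. Pdcd1lg2 in phagocytes kept its sign in 11 of 11, moving to -0.80 with a prior of 5 CPM and to -2.31 with clusters weighted alike, where 2 clusters had no UMI with SHP099. Cd274 in Xist-negative cells kept its sign in 10 of 10, moving to -0.64 with cells assigned by their own markers and to -0.45 with clusters weighted alike. Cd80 in phagocytes was 0.23 with clusters weighted alike. Ctla4 in T cells was 0.0272 with clusters weighted alike and reversed to -0.38 in cluster 12 alone, where Cd28 was -0.57. A floor of 1 CPM raised the genes at least 1.5-fold apart from 424 to 1241 in phagocytes, from 96 to 279 in Xist-negative cells and from 1249 to 3647 in T cells, since more low genes were compared. Where no value is given above, the cause of a move was not tested. Depth limits the receptors within T cell clusters and every value in NK and dendritic cells.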

Other observations

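In CD8 T cells several other receptors of activated cells were read beside Pdcd1 and Ctla4. Of 7 listed costimulatory receptors at 10 CPM or more 0 were at least 1.5-fold higher and 0 lower, with a median log2 ratio of 0.01. Tnfrsf4, which encodes the costimulatory receptor OX40, was at 245 and 169 CPM (-0.53, -0.86 to -0.22), and Tnfrsf18, which encodes GITR, at 324 and 244 CPM (-0.41, -0.68 to -0.14). Of 7 genes listed as inhibitory receptors 1 was higher and 0 lower. The higher one was again the ectonucleotidase gene Entpd1, at 21.5 and 45.2 CPM (1.06, 0.28 to 1.89). Tcf7, a factor of less differentiated T cells, was at 11.6 and 4.38 CPM (-1.31, -3.84 to 0.44), and Nr4a1 at 97.4 and 147 CPM (0.60, 0.20 to 0.99). Ifng was at 149 and 149 CPM (-0.01, -0.37 to 0.35). Dividing T cells, with a Mki67 or Top2a UMI, were 23.2% (19.7 to 27.1) and 29.6% (25.1 to 34.3) of T cells, and Pdcd1 was at 238 and 185 CPM (-0.36, -0.77 to 0.04) in them and 244 and 155 CPM (-0.66, -1.03 to -0.30) in the other T cells.

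The unnamed cluster marked by Ctsk, Mmp9 and Acp5, genes known from osteoclasts, held 132 and 152 cells at median depths of 1320.5 and 1115.5 UMIs. Cd274 in it was at 70.3 and 35.99 CPM (-0.96, -1.79 to -0.18), from 39 and 22 UMIs. Cd86 was at 41.5 and 47.4 CPM (0.19, -0.65 to 1.05). Its receptor counts were 0 and 0 UMIs of Pdcd1, 1 and 0 of Ctla4 and 0 and 0 of Cd28.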
